A study of Homo sapiens with 5 samples.

Results

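Afatinib at day 6 (D6) was compared with untreated cells in single MDA-MB-468 cells, and only cells with little mitochondrial RNA were counted. A cell entered when its counts on genes with symbols beginning MT- made up less than 10% of its total. The cells were thus selected on their measured mitochondrial counts, and 1427 cells of 3 libraries were compared, out of 4101 cells in 5 libraries. Untreated day 0 (D0) replicate 1 kept 379 of 478 cells, D0 replicate 2 kept 860 of 1063, and the D6 library kept 188 of 942. MDA-MB-468 is a triple-negative breast cancer cell line with amplified EGFR, and the population carried lentiviral lineage barcodes. Afatinib, an irreversible inhibitor of EGFR and HER2, was given at 250 nM, and the D0 cells had none. The D3 and D9 libraries (85 and 857 cells by the same rule, same dose) serve below only to place D6 in time. There was 1 library per treated day, and nothing in the labels tells whether the untreated replicates came from separate cultures, so p-values may measure technical spread only. Treated cells were cryopreserved after collection, per the study's methods.

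EGFR is a receptor tyrosine kinase. Ligands such as amphiregulin bring it to dimerise, and it then signals through the RAS and ERK cascade to transcription factors of the AP-1 family and through PI3K and AKT, which holds FOXO transcription factors out of the nucleus. Transcripts of the mitochondrial genome stay inside mitochondria, so their share of a cell's counts goes up when cytosolic RNA is lost as well as when they are made in larger amounts. A bound on that share is therefore a usual filter in single-cell data, and here it removed most cells of the D3 and D6 libraries and few of the others.

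The share of cells under the bound was 79.3% in untreated D0 replicate 1 (exact binomial 95% interval 75.4 to 82.8), 80.9% in untreated D0 replicate 2 (78.4 to 83.2) and 19.96% at D6 (17.4 to 22.7). It was 17.7% at D3 (14.4 to 21.5) and 75.2% at D9 (72.6 to 77.7). These intervals cover counting error only. The D6 library thus lost the larger part of its cells, while the untreated libraries lost few. The rule used these counts, so they are given without a test. The D6 cells also lay nearer to the bound: the median share of the cells kept was 8.11% at D6 against 6.099% and 6.95% in the untreated replicates, and 56 of the 188 D6 cells lay between 9% and 10%. Just outside, 47 further D6 cells lay between 10% and 11%. The cells nearest to the bound at D6 had shares of 9.99% inside and 10.03% outside.

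**Figure D1:**
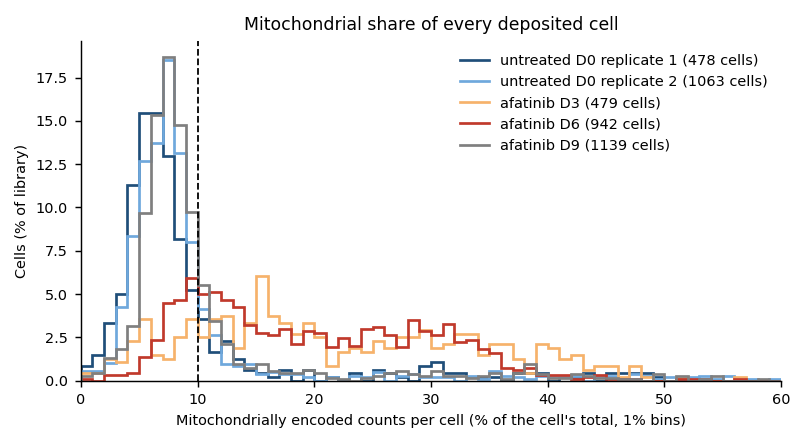
Distribution of the mitochondrial share of counts over all deposited cells, in 1% bins (x axis, percent of a cell's total), as percent of each library's cells (y axis), with 1 line per library and the 10% bound dashed. The untreated and D9 libraries peak below the bound, whereas 19.96% of D6 and 17.7% of D3 cells lie under it.

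Summed over the cells kept, the libraries held 20497623 counts (untreated D0 replicate 1), 24920489 (untreated D0 replicate 2) and 4930162 (D6), with medians of 49680, 26706.5 and 24301.5 UMIs per cell. The make-up of the RNA was closer between groups than in whole libraries. Ribosomal protein transcripts took 19.4%, 18.8% and 19.3% of counts, where all D6 cells together had 14.2%. MALAT1, a nuclear RNA, took 0.495%, 0.619% and 0.818%, where all D6 cells had 2.10%. All 10 markers chosen for the line (EGFR, EPCAM, CDH1, VIM and 6 keratins) were present in the 3 libraries. The receptor gene ESR1 stayed at 0.41 CPM (counts scaled to library size) or below, and of 17 markers of fibroblasts, endothelium, leukocytes and red cells only COL1A1 and KDR were among the genes measured, at 4.06 CPM or below.

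Counts of each library were tested with edgeR's quasi-likelihood test over 12167 genes, and a gene was called when its Benjamini-Hochberg adjusted p was under 0.05 and it was changed by at least 1 on the log2 scale. By this rule 525 genes rose (4.31% of those tested) and 568 fell (4.67%), and the median log2 fold change of all genes was -0.0039. Counts of calls in the gene lists below are to be read beside these shares. D6 lay outside the untreated pair for all 525 rises and for 564 of 568 falls. The spread in this test comes from the untreated pair alone. D6 is assumed to vary like that pair, which the study's batch adjustment may have drawn together, so the p-values may be too small. DESeq2 called 227 rises and 215 falls by the same rule, and cells thinned to 5000 UMIs gave 341 and 337. Without untreated D0 replicate 2, 479 of the 525 rises and 519 of the 568 falls were still changed by 1 or more on the log2 scale.

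The largest fall among genes averaging 20 CPM or more was that of a metallothionein. Metallothioneins are small cysteine-rich proteins that bind zinc and copper, and their genes are near copies, so reads may be split among them. MT1E (GRCh38, chr16:56625475-56627112, plus strand) had 1486 and 1434 CPM in the untreated replicates and 18.9 CPM at D6, a log2 fold change of -6.27 (SE 0.12). Of untreated cells 100% and 99.9% held a UMI of MT1E, and of D6 cells 27.1%. With every cell thinned to 5000 UMIs the shares were 96.3%, 95.7% and 9.57% (exact 95% interval 5.77 to 14.7 at D6), so the fall was spread over the cells. MT2A, which lies beside it (chr16:56608584-56609497, plus strand), had 3518 and 3488 CPM untreated and 292 CPM at D6 (log2 fold change -3.58, SE 0.07). MT1X had 262, 263 and 24.8 CPM (log2 fold change -3.40, SE 0.15). The untreated replicates nearly coincided for each of the 3 genes, though the study's batch adjustment may have drawn them together. Of 10 tested metallothioneins and zinc transporters, 5 fell and 1 rose, with a median log2 fold change of -1.52. The remaining falls were MT1F (-1.39) and SLC30A1 (-1.65), a zinc exporter, and the rise was the zinc importer SLC39A10 (24.1 CPM as the mean of the untreated replicates, 72.2 CPM at D6, log2 fold change 1.59, SE 0.15).

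Metallothionein genes are known to be switched on by the zinc-sensing factor MTF1 through metal response elements, whose core reads TGCNCNC. The RefSeq promoter windows (GRCh38.p14, 250 bases before to 50 after the gene start) of the pair in the sequence table are shown because these genes fell together, with every core on either strand in capitals.
MT2A, chr16:56608334-56608633, plus strand: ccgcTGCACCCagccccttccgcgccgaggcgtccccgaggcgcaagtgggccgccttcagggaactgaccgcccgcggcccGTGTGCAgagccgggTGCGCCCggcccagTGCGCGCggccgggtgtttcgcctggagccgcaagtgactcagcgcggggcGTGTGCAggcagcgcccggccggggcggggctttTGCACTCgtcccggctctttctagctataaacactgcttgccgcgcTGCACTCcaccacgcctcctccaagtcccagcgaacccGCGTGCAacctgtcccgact
MT1X, chr16:56682220-56682519, plus strand: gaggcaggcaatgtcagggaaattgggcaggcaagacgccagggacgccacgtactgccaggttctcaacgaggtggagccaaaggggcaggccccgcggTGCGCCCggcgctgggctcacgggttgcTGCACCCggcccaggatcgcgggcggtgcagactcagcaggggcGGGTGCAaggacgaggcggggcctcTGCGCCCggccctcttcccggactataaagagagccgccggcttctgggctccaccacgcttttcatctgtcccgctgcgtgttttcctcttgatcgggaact
The MT2A window held 8 cores and the MT1X window 4, against a mean of 0.932 per window over all 35116 promoters, of which 55.9% held at least 1. A core was found in 7 of the 8 windows in the table for the 15 largest falls and in 4 of the 9 for the 15 largest rises.

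The targets of afatinib were little changed in transcript level. EGFR (chr7:55019017-55211628) had 850 and 911 CPM untreated and 704 CPM at D6, a log2 fold change of -0.32 (SE 0.06, adjusted p = 4.14e-06), and thus stayed below the fold required. ERBB2, which encodes HER2, had 12.7, 11.998 and 18.5 CPM (log2 fold change 0.58, SE 0.20), and ERBB3, its kinase-poor partner, had 20.6, 21.1 and 30.2 CPM (0.53, SE 0.17). None of the 4 tested receptors was called. Ligands fell where they were called. Amphiregulin (AREG) had 37.4 and 29.3 CPM untreated and 1.47 CPM (7 counts) at D6, a log2 fold change of -4.49 (SE 0.33, adjusted p = 1.19e-39). Epigen (EPGN) had 44 and 53 counts untreated and 1 count at D6, a 10.7-fold lower CPM with a counting interval of 1.92 to 423. The other 4 tested ligands had log2 fold changes from -0.86 (TGFA) to -0.13 (NRG2), uncalled, which gives a median of -0.77 over the 6.

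Genes that report ERK activity did not move as 1 block. Among 17 tested outputs and feedback regulators of ERK there were 2 falls and 2 rises, and the median log2 fold change was -0.38. FOSL1, an AP-1 subunit that ERK stabilises, had 84.7, 94.8 and 10.5 CPM (log2 fold change -3.10, SE 0.22), and DUSP6, a phosphatase of ERK, had 15.3, 14.5 and 5.45 CPM (-1.44, SE 0.25). MYC had 101, 108 and 223 CPM (1.09, SE 0.10, and 0.88 over all cells, uncalled) and IER3 had 973, 943 and 2213 CPM (1.21, SE 0.05). The Sprouty inhibitor SPRY2 (-0.82) and the phosphatase DUSP4 (-0.71) were lower but uncalled. Immediate early and AP-1 factors, which serum or stress switches on within minutes, had 7 rises and 0 falls among 14, with a median of 1.00, in a list that does not hold FOSL1. NR4A2, an orphan nuclear receptor, had 6.24, 4.78 and 53.3 CPM (log2 fold change 3.28, SE 0.17, adjusted p = 7.75e-80), and NR4A1 had 5.67, 7.01 and 28.3 CPM (2.15, SE 0.18). KLF2 (2.02), MAFF (1.74), ATF3 (1.69), FOS (1.10) and FOSB (1.08) completed the 7. The ERK and JNK phosphatase DUSP1, in no list, was among the 15 largest rises, with 10.7, 11.2 and 49.5 CPM (2.17, SE 0.17).

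**Figure D2:**
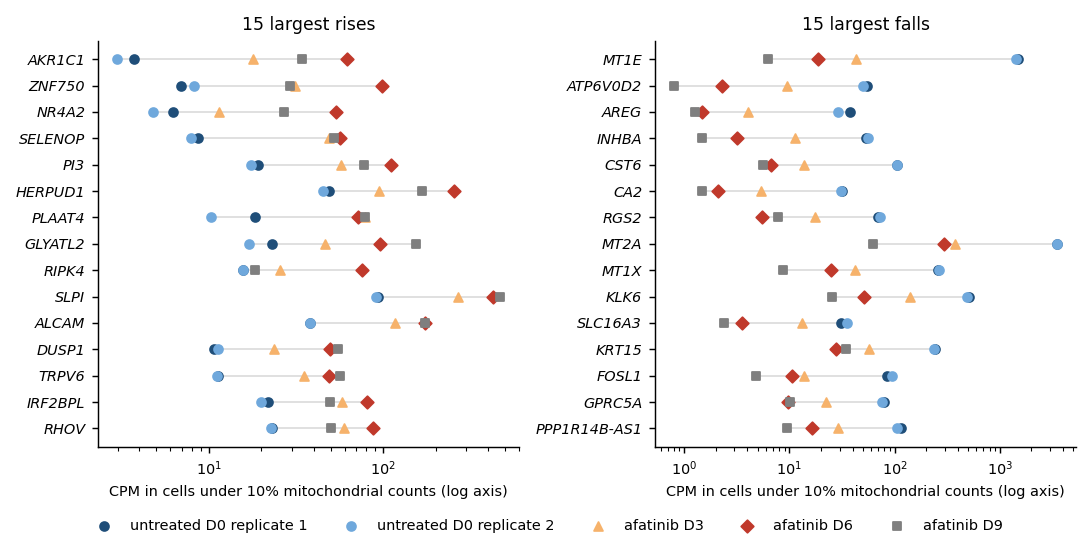
CPM (log axis) of the 15 largest rises and 15 largest falls in cells under 10% mitochondrial counts, 1 marker per library. The untreated pair, which the study's batch adjustment may have drawn together, lies close together. D6 lies apart from it for every gene, and D9 lies below D6 for 12 of the 15 falls, as for MT1E at 6.23 CPM.

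Stress of the endoplasmic reticulum and shortage of amino acids both act through the factor ATF4. Of 21 tested genes of the unfolded protein and integrated stress responses, 10 rose and 0 fell. All 21 had a log2 fold change above 0, with a median of 0.99. HERPUD1, which serves the disposal of misfolded proteins from the reticulum, had 48.6 and 45.4 CPM untreated and 254 CPM at D6, a log2 fold change of 2.43 (SE 0.11, adjusted p = 1.01e-109). After thinning, 19.0% and 17.6% of untreated cells and 69.1% of D6 cells held a UMI (exact 95% interval 62.0 to 75.7). SESN2 (11.2, 12.1 and 37.1 CPM) and DDIT3, which encodes CHOP (26.3, 25.6 and 77.0 CPM), rose by 1.67 (SE 0.17) and 1.57 (SE 0.15) on the log2 scale. The chaperone HSPA5, which encodes BiP, had 180, 191 and 390 CPM (1.07, SE 0.08). PHGDH, which starts serine synthesis, had 299, 292 and 680 CPM (1.203, SE 0.07), TRIB3 rose by 1.17 and DNAJB9 by 1.48 on the log2 scale. ATF4 itself had 313, 319 and 546 CPM, a log2 fold change of 0.79 (SE 0.07), and was not called. Aminoacyl-tRNA synthetases, known targets of ATF4, had 0 of 18 called with a median of 0.39. By adjusted p alone, at any fold, 11 of the 18 were higher and 3 lower. Of all 12167 genes 2019 were higher and 2068 lower by that measure.

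The HERPUD1 promoter window is shown because this gene led the group, with its match to the amino acid response element TGATGNAA, which lies on the opposite strand, in capitals.
HERPUD1, chr16:56931892-56932191, plus strand: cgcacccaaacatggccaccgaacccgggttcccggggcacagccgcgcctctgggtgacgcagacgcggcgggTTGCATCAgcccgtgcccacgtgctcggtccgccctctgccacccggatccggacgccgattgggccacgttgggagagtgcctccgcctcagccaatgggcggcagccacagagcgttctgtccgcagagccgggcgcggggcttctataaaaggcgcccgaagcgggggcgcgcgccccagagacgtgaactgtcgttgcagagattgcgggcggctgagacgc
This motif occurs in 3.62% of all promoter windows, in 1 of 9 windows of the largest rises and in 1 of 8 of the largest falls (KLK6). The AP-1 site TGANTCA, in 7.71% of all windows, was found in 0 of 9 windows of the largest rises and 1 of 8 of the largest falls (MT2A). The FOXO site GTAAACA, in 3.42% of all windows, was found in 1 of 9 (SELENOP) and 0 of 8. The E2F site TTTNGCGC (1.79% of all windows) was found in 0 windows of either group, and the CHR element TTTGAA (15.2%) in 1 of 9 rises (DUSP1) and 0 of 8 falls. All motifs were read on both strands, and these matches describe letters in the window only.

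Among regulators of epidermal differentiation there were rises and a fall. ZNF750 (chr17:82829434-82840022, minus strand), a transcription factor of terminal epidermal differentiation, had 6.96 and 8.18 CPM untreated and 98.4 CPM at D6, a log2 fold change of 3.69 (SE 0.15, adjusted p = 8.52e-127). Cells with a UMI of ZNF750 made up 2.90% and 3.72% of thinned untreated cells and 33.5% of thinned D6 cells (exact 95% interval 26.8 to 40.7). RIPK4, a kinase needed for epidermal differentiation, had 15.7, 15.7 and 75.3 CPM (2.26, SE 0.15). TP63, the master regulator of basal epidermis, had 43 and 74 counts untreated and 0 at D6, which with a floor of 3 counts is at least 4.23-fold lower. In all, 2 of 13 tested epidermal differentiation genes rose and 1 fell, and the median was -0.07.

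Of 11 tested basal and squamous keratins 6 fell and 0 rose, with a median of -1.27. KRT15 had 240, 235 and 27.7 CPM (log2 fold change -3.10, SE 0.15, adjusted p = 2.93e-93), KRT6B had 46.4, 35.2 and 6.92 CPM (-2.55, SE 0.23), and KRT81, a hair keratin, had 851, 894 and 262 CPM (-1.73, SE 0.08). KRT6A, a near copy of KRT6B, was at 19 counts in each untreated library and 0 at D6, at least 1.41-fold lower. The basal pair KRT5 (561, 568 and 447 CPM) and KRT14 (49.5, 53.5 and 40.9 CPM) had log2 fold changes of -0.34 and -0.33 and were below the fold required. All 11 keratins of the list had values below 0.

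Of 13 kallikreins and protease inhibitors tested 7 fell and 3 rose, with a median of -1.36. Kallikreins are secreted serine proteases, and KLK6 had 505, 492 and 51.0 CPM (log2 fold change -3.29, SE 0.11). KLK5 had 466, 467 and 104 CPM (-2.16, SE 0.10), and KLK8 fell to 4 counts at D6 (-4.14, SE 0.38). CST6, an inhibitor of lysosomal cysteine proteases, had 106, 105 and 6.71 CPM (-3.97, SE 0.24). The inhibitors of neutrophil elastase went up instead: PI3 (elafin) had 19.2, 17.5 and 111 CPM (2.60, SE 0.15) and SLPI had 93.6, 90.9 and 425 CPM (2.21, SE 0.08). The third rise, CSTA, stayed below 4 CPM. Among 12 S100 proteins, S100A2 had 2940, 2735 and 1334 CPM (-1.09, SE 0.06), S100A4 had 230, 224 and 568 CPM (1.32, SE 0.07, and 0.87 over all cells, uncalled), and S100A7 was at 2 counts at D6.

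**Figure D3:**
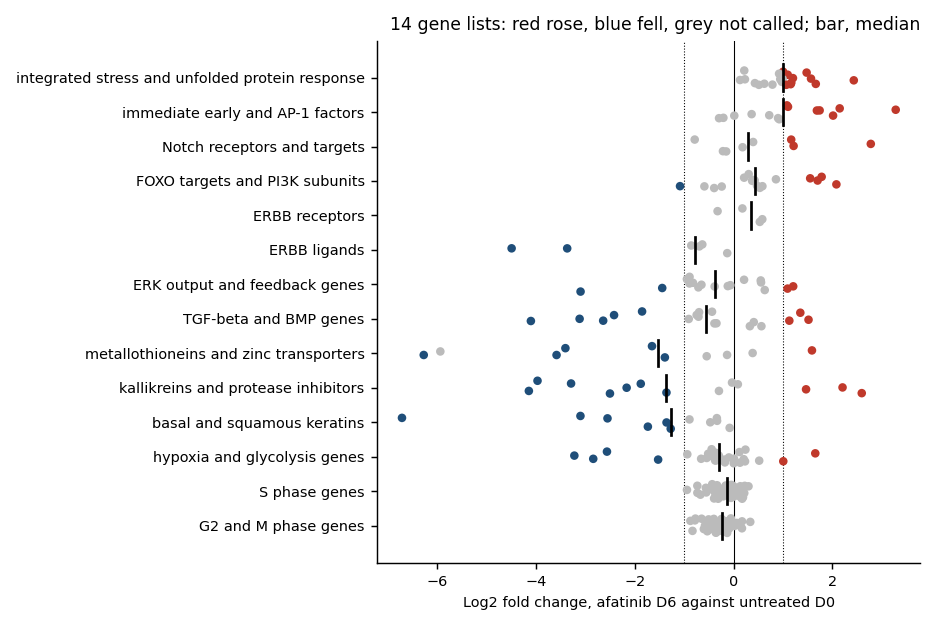
Log2 fold change at D6 against untreated of each tested member of 14 gene lists (points), with the list median as a bar and dotted lines at -1 and 1. Stress and immediate early genes lie to the right, and metallothioneins, kallikreins and basal keratins reach far to the left. Cell cycle genes lie between the dotted lines with 0 calls, most of them below 0. Points with 0 counts at D6 (KRT6A, SLC30A2) have fitted values that are no bound.

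Signals of the TGF-beta superfamily act through secreted ligands and their antagonists. Of 18 tested TGF-beta and BMP genes 5 fell and 3 rose, with a median of -0.57. INHBA, which forms activin A, had 52.97, 55.4 and 3.15 CPM (log2 fold change -4.10, SE 0.28), its antagonist FST had 31.7, 36.3 and 5.45 CPM (-2.64, SE 0.25), and BMP2 had 22.4, 21.4 and 2.52 CPM (-3.12, SE 0.30). The ID genes, targets of BMP signals, split: ID1 had 11.1, 11.4 and 2.10 CPM (-2.42, SE 0.32), while ID4 had 137, 147 and 363 CPM (1.35, SE 0.08) and ID2 had 35.2, 32.4 and 96.7 CPM (1.52, SE 0.15). Notch genes had 3 rises and 0 falls among 8 tested, with a median of 0.29. NRARP, a feedback inhibitor of Notch, had 6.14, 5.79 and 40.9 CPM (2.78, SE 0.17), HES1 had 144.2, 139 and 318 CPM (1.17, SE 0.09) and the receptor NOTCH3 had 51.3, 50.1 and 118 CPM (1.22, SE 0.13). NOTCH1 had a log2 fold change of -0.15 and was not called.

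FOXO targets and PI3K subunits, kept in 1 list, had 4 rises and 1 fall among 17 tested, with a median of 0.43. TSC22D3, which encodes GILZ, had 8.77, 8.85 and 37.3 CPM (2.08, SE 0.18, adjusted p = 5.83e-30), SESN3 had 10.0, 9.27 and 33.2 CPM (1.78, SE 0.18), and KLHL24 rose by 1.70 (SE 0.19). BCL6 also rose (1.86, 1.72 and 5.25 CPM). The fall was PIK3R1, a regulatory subunit of PI3K, with 60.2, 64.2 and 29.4 CPM (-1.08, SE 0.18). In the IGF axis 1 gene rose and 3 fell among 13. IGFBP2, which binds insulin-like growth factors, had 137, 134 and 223 CPM, a log2 fold change of 0.72 (SE 0.09, adjusted p = 1.95e-13) that stayed below the fold required, and IGF1R had 13.8, 11.6 and 21.4 CPM (0.76, SE 0.19). IGFBP3 (57.4, 53.6 and 22.9 CPM), the adaptor IRS1 (28.4, 32.1 and 12.8 CPM) and IGFBP4 (76.3, 83.9 and 37.8 CPM) fell, and IGFBP6 rose from 2.68 and 3.06 to 7.55 CPM. Of the 36 D6 counts of IGFBP6, 17 were in 1 cell, and over all cells its log2 fold change was 0.61 and not called. Among other receptor kinases, MET had 71.1, 77.4 and 25.4 CPM (-1.55, SE 0.18) and KIT had 12.6, 10.3 and 31.3 CPM (1.46, SE 0.18). Of the 7 resistance genes that the study names, 0 were called, and their log2 fold changes ran from -0.65 (FGF2) and -0.38 (HRAS) through -0.20 (PDGFC), 0.12 (GAS6), 0.15 (MAPK3) and 0.31 (PIK3R2) to 0.37 (BAX). The study drew these genes from a different comparison, of clones that came to dominate under afatinib with the other tolerant clones. Clones were not separated here, so that comparison was not made.

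Detoxifying enzymes and pumps had 3 rises and 5 falls among 12 tested. AKR1C1 (chr10:4963253-4983283, plus strand), an aldo-keto reductase that reduces steroids and reactive aldehydes, had 3.71 and 2.98 CPM untreated and 62.3 CPM at D6. Its log2 fold change of 4.23 (SE 0.18, adjusted p = 3.43e-122) was the largest rise where the 3 libraries averaged 20 CPM or more. After thinning 1.32% and 0.81% of untreated cells and 21.8% of D6 cells (exact 95% interval 16.1 to 28.4) held a UMI. Its near copy AKR1C2 had 2.94, 2.14 and 48.5 CPM (4.27, SE 0.19), and reads may be split between the pair. The drug pumps ABCC2 (79 and 112 counts untreated, 1 at D6) and ABCC3 (26.7, 26.5 and 5.87 CPM, -2.18, SE 0.25) fell. Of 21 antioxidant and glutathione genes 2 rose and 0 fell. These were the selenium carrier SELENOP (8.66, 7.89 and 56.6 CPM, 2.78, SE 0.17) and the cystine importer SLC7A11 (5.36, 5.33 and 22.5 CPM, 2.07, SE 0.20). The list median was 0.07. Large rises outside the lists were the glycine acyltransferase GLYATL2 (22.9, 16.9 and 96.5 CPM, 2.28, SE 0.15), the calcium channel TRPV6 (11.3, 11.1 and 49.1 CPM, 2.13, SE 0.17), IRF2BPL (21.8, 19.8 and 80.6 CPM, 1.95, SE 0.15) and the small GTPase RHOV (23.1, 22.8 and 87.1 CPM, 1.92, SE 0.15).

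Hypoxia and glycolysis genes had 4 falls and 2 rises among 29, with a median of -0.30. The lactate exporter SLC16A3 had 31.2, 35.5 and 3.57 CPM (-3.22, SE 0.27), ADM had 26.4, 27.8 and 3.78 CPM (-2.84, SE 0.27), CA9 fell to 4 counts (-2.56, SE 0.49) and EGLN3 fell by 1.53 (SE 0.21), whereas VEGFA had 23.6, 21.5 and 70.9 CPM (1.65, SE 0.16). Other large falls lay in no list. The GTPase regulator RGS2 had 69.4, 72.7 and 5.45 CPM (-3.70, SE 0.25), the orphan receptor GPRC5A had 79.3, 75.3 and 9.65 CPM (-2.9995, SE 0.22) and the noncoding PPP1R14B-AS1 had 115, 106 and 16.6 CPM (-2.73, SE 0.19). The carbonic anhydrase CA2 had 31.8, 31.0 and 2.10 CPM (-3.90, SE 0.31). ATP6V0D2, an isoform of a proton pump subunit, had 54.4, 50.1 and 2.31 CPM (-4.49, SE 0.29) and was the only call among 38 lysosome and proton pump genes. In the BCL2 family BBC3, which encodes the pro-death protein PUMA, had 4.64, 4.45 and 19.7 CPM (2.12, SE 0.20), BCL2L2 rose from 5.47 and 5.83 to 12.2 CPM, and BAK1 fell from 27.6 and 28.7 to 12.4 CPM.

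Further lists follow. Of 15 mesenchymal and matrix genes 5 fell, among them ITGB4 at 50.1, 54.8 and 17.0 CPM (-1.63, SE 0.20) and LAMB3 at -2.26 (-0.70 over all cells, uncalled), and TAGLN (1.29) was the rise. YAP and TEAD targets had 3 falls among 15 (NT5E -1.75, F3 -1.54, ANKRD1 -1.19). Luminal breast genes had 3 rises (PROM1 1.66, XBP1 1.16, SPDEF 1.12) and 2 falls (AGR2 -3.26, LCN2 -1.11) among 16. Their median was -0.41, and by adjusted p alone, at any fold, 8 were lower and 4 higher. Heat shock proteins had 1 fall among 22, HSPB1 (238, 251 and 55.2 CPM, -2.15, SE 0.12), and 1 rise, CRYAB. The list median was -0.35, and by adjusted p alone 15 of the 22 were lower and 1 higher. Of 21 epithelial adhesion genes ALCAM rose (38.1, 37.97 and 174 CPM, 2.20, SE 0.12) and CLDN1 and ESRP2 fell. Among 17 p53 targets 1 rose (BBC3) and 2 fell: PLK3 (15.5, 14.8 and 5.25 CPM, a log2 fold change of -1.53, and -0.51 over all cells, uncalled) and GDF15, which had 17 and 20 counts untreated and 0 at D6, at least 1.36-fold lower. Of 20 carnitine and fatty acid oxidation genes 1 rose, BBOX1, the last enzyme of carnitine synthesis (7.43, 7.30 and 36.9 CPM, 2.33, SE 0.18). Chromatin modifiers (32 tested), histone genes (21), class I antigen presentation (16), S phase (50) and mitotic genes (54) had 0 calls. Changes below the fold required are not counted here.

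Interferon-stimulated genes looked like a further group that rose, with 9 rises and 1 fall among 28 and a median of 0.66, but few cells carried it. OASL had 9.95 and 2.94 CPM untreated and 37.8 CPM at D6 (log2 fold change 2.60, SE 0.18, adjusted p = 1.88e-43). Of its 180 counts at D6, 145 were in 1 cell, and 13 of 188 cells held any. IFI6 had 15.9, 12.3 and 39.4 CPM (1.49, SE 0.17), with 82.4% of its D6 counts in 10 cells. Without thinning, the share of cells with a UMI of IFI6 was 13.3% at D6 against 18.2% and 12.7% untreated. After thinning to equal depth it was 7.45% at D6 (exact interval 4.13 to 12.2) against 5.80% and 4.65%. The thinned shares of OASL were 3.19% (1.18 to 6.82) against 0.79% and 0.93%. At equal depth D6 thus lay above both untreated libraries for IFI6 and OASL, but the intervals overlapped. ISG15 had 77.1, 66.5 and 168 CPM (1.23, SE 0.11), with 75.6% in 10 cells, where 10 cells held 44.5% and 17.1% of the untreated counts. The untreated libraries held more cells (379 and 860 against 188), so 10 cells are a smaller part of them. These shares are therefore not on 1 scale. OAS2, IFI44L, RSAD2, XAF1, IFI44 and SAMD9 also rose, with 59.5% to 100% of D6 counts in 10 cells. The tested genes of the list summed took a median of 0.0285% of a D6 cell's counts against 0.0265% and 0.0305% in untreated cells. The median D6 cell thus lay between the untreated medians, while the sums moved with few cells. The fall, IFIT2, had 20.3 and 0.55 CPM in the untreated replicates and 3.57 CPM at D6, so that D6 lay between them. Without untreated D0 replicate 1 its log2 fold change turned from -1.48 to 2.69.

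PLAAT4, a phospholipase-like enzyme among the 15 largest rises, also had most of its D6 counts in few cells. It had 18.5 and 10.3 CPM untreated and 71.8 CPM at D6 (2.33, SE 0.16). Of its 342 D6 counts, 123 were in 1 cell and 77.5% in 10 cells. In the untreated libraries 10 cells held 48.7% and 28.5% of its counts, but out of 379 and 860 cells against 188 at D6. The share of thinned cells with a UMI of PLAAT4 was also higher, at 12.2% (exact interval 7.92 to 17.8) against 6.07% and 3.60% untreated. The interval overlapped that of untreated D0 replicate 1 (3.89 to 8.97). PLAAT4 had 78.6 CPM at D3 and 78.9 CPM at D9. In cells scored as G1 it was no longer called at D6. For the remaining 14 of the 15 largest rises, the 10 cells with most counts held 12.2% (HERPUD1) to 31.9% (PI3). The chemokine CCL5 (4.33, 1.43 and 19.7 CPM, 2.83, SE 0.23) rested on 5 D6 cells. NFKBIA, an inhibitor of NF-kB in the same list of 5 rises among 19, was carried more widely at 42.1, 39.5 and 105 CPM (1.36, SE 0.14).

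**Figure D4:**
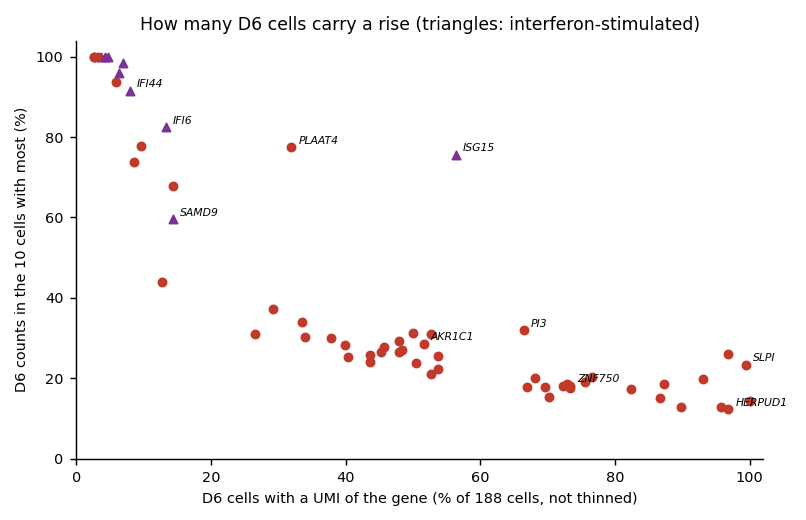
Named genes and interferon-stimulated genes that rose at D6, by the share of the 188 D6 cells with a UMI (x axis, percent) and the share of the gene's D6 counts in its 10 highest cells (y axis, percent). Most rises lie at the lower right or centre, such as HERPUD1 at 96.8% and 12.2%, while interferon-stimulated genes (triangles) and PLAAT4 lie high. A gene with few counts lies at the upper left in any case.

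Several gene groups had other medians once the bound on mitochondrial share was dropped. Without it, 820 genes rose and 703 fell, and 418 rises and 418 falls were shared. The shared rises made up 79.6% of those with the bound and 51.0% of those without, and the shared falls 73.6% and 59.5%. No gene was called in opposite directions. Cytosolic ribosomal proteins had a median log2 fold change of 0.0037 under the bound, -0.48 over all cells and -0.43 in the cells at or over it. Nuclear-encoded subunits of oxidative phosphorylation had -0.09, -0.53 and -0.46, with ATP5ME (620, 598 and 243 CPM, -1.32, SE 0.08) as the only call. Mitochondrial ribosomal proteins had -0.35, -0.70 and -0.61, proteasome subunits -0.24, -0.57 and -0.43, and S100 proteins -0.61, -1.12 and -1.12. None of the ribosomal protein, mitochondrial ribosomal protein or proteasome genes reached the fold required for a call under the bound. By adjusted p alone, 43 of 78 mitochondrial ribosomal protein genes and 20 of 37 proteasome genes were lower there and 0 higher. Of 83 cytosolic ribosomal protein genes 24 were lower and 22 higher, and of all 12167 genes 2068 were lower. Stress response genes were at 0.99, 1.03 and 1.06, and metallothioneins and zinc transporters had -1.52, -1.55 and -1.16. These values come from the same libraries, and the differences between them were not tested.

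**Figure D5:**
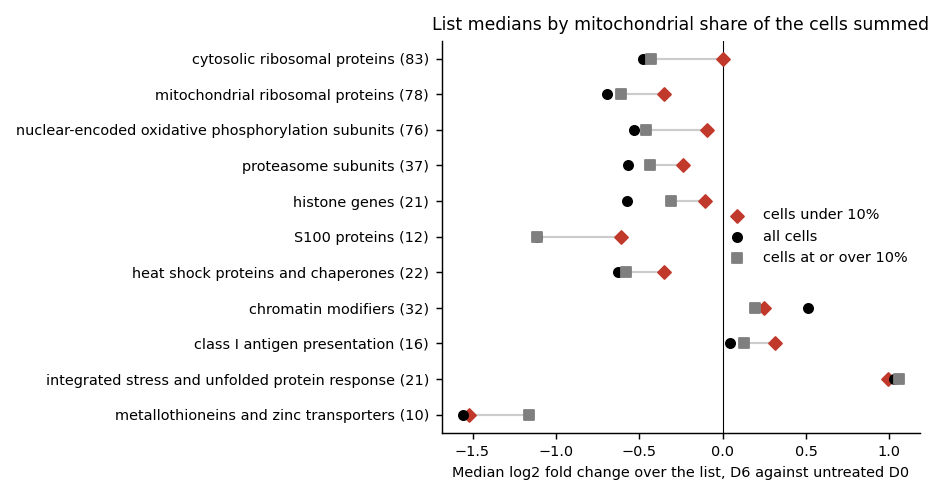
Median log2 fold change at D6 against untreated (x axis) of 11 gene lists, with the number of genes tested in brackets, from cells under the 10% bound, all cells and cells at or over it. Cytosolic ribosomal proteins move from -0.48 in all cells to 0.0037 under the bound, and stress response genes stay near 1.

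The genes whose fold moved most with the bound were read next. Where the 3 libraries averaged 20 CPM or more, the log2 fold change of MALAT1 was 1.61 over all cells and 0.53 under the bound, and that of FTX, a nuclear noncoding RNA, was 1.03 and -0.12. Upward, IFI6 moved from 0.50 to 1.49, PLAAT4 from 1.46 to 2.33, CST6 from -4.80 to -3.97, the histone gene H4C3 from -1.49 to -0.68 and C11orf98 from -1.52 to -0.76. The other 3 that moved down most were the mitochondrial MT-ND6 (0.16 to -1.26), ENSG00000255823 (0.64 to -0.57) and ENSG00000269028 (1.66 to 0.52). The last 2 have no symbol in the deposited matrix, and what they encode was not looked up. Mitochondrially encoded genes took 6.02% and 6.58% of untreated and 7.93% of D6 counts under the bound, and 7.25%, 7.80% and 15.995% over all cells. Under the bound MT-ND1 had 1705, 1875 and 3560 CPM and MT-CO1 had 11532, 12435 and 14427 CPM. All 13 mitochondrially encoded genes stayed in the fit, and 1 of them, MT-ND6, is counted among the 568 falls. The rule that chose the cells used these genes, so their p-values and that call carry no weight.

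The cells at or over the bound form a disjoint set from the same libraries. In them 506 genes rose and 479 fell, of which 289 rises and 284 falls were shared with the cells under it. The log2 fold changes there were 3.72 for ZNF750, 3.86 for NR4A2, 2.61 for HERPUD1, -6.78 for MT1E, -3.81 for KLK6 and -3.46 for KRT15. Smaller changes than under the bound were found for AKR1C1 (3.10 against 4.23), PI3 (1.28 against 2.60), GLYATL2 (1.16 against 2.28), SLPI (1.29 against 2.21) and CA2 (-2.89 against -3.90). These genes were named for large changes under the bound. The untreated replicates held only 99 and 203 cells at or over it. Their levels differed there, as for AKR1C1 (1.70 and 7.31 CPM) and PI3 (17.0 and 29.6 CPM). The differences in fold were not tested. Of the 30 largest changes 29 were called there too, all but PLAAT4, whose log2 fold change there was 0.88. IFIT2 was the only gene called in opposite directions.

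Cell cycle phases were scored from expressed genes. Cells scored as G1 made up 25.6% and 21.9% of untreated cells and 33.0% of D6 cells under the bound (exact 95% intervals 21.3 to 30.3, 19.1 to 24.8 and 26.3 to 40.2). Cells in S were 29.0%, 33.7% and 27.1%, and cells in G2 or M 45.4%, 44.4% and 39.9%. The G1 interval of D6 lies above that of untreated D0 replicate 2 and overlaps that of replicate 1. D6 is 1 library, so no test was made. The S phase list had a median log2 fold change of -0.14 and the mitotic list -0.24, with MKI67 at 206, 229 and 192 CPM. By adjusted p alone, at any fold, 14 of 50 S phase genes and 25 of 54 mitotic genes were lower and 0 higher. Over all 12167 genes, 2068 were lower and 2019 higher by that measure. In cells scored as G1 (97, 188 and 62 cells) 410 genes rose and 503 fell, and 29 of the 30 largest changes were called.

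D6 was then set against the other treated days in cells of the same kind. A gene that stood apart at D6 had to be called against untreated and also, in the same direction and by the same rule, against D3 and against D9, with 1 library on each side and the spread taken from the untreated pair. This held for 11 rises and 11 falls (0.0904% of genes each). Only 4 of them averaged 20 CPM or more over the untreated and D6 libraries, all rises. ZNF750 had 31.3 CPM at D3, 98.4 at D6 and 29.3 at D9. RIPK4 had 25.8, 75.3 and 18.5 CPM, the D9 level being near the untreated 15.7 CPM. MAFF, a small MAF factor, had 16.8, 42.4 and 12.8 CPM, and HES1 had 151, 318 and 122 CPM. D6 stood above both other days for each of the 4. Metallothioneins and KLK6 went on falling to D9: MT2A had 376, 292 and 62.3 CPM, and KLK6 had 139, 51.0 and 25.6 CPM over the 3 days.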

How the data were processed

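Single-cell 3′ RNA-seq libraries of MDA-MB-468 cells were read with Cell Ranger 6.1.2 on GRCh38, per the submitters' processing notes. The authors removed shallow cells, putative doublets and cells with outlying mitochondrial shares, and adjusted the counts for batch with ComBat-seq. The deposited matrix thus holds adjusted, whole-number expected counts (adjusted UMI numbers, not scaled for depth), 12474 genes by 4101 cells, and libraries were taken from the prefixes of the deposited cell names. The value 2 was missing for 4178 genes in both untreated D0 replicate 1 and D6 (2495 expected if independent), but for 0 genes in both untreated replicates, so replicate 2 was taken as its own adjustment batch. The bound on mitochondrial share was applied to adjusted counts. 1 cell barcode occurred in 2 libraries.

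Counts were summed per library over cells under 10% mitochondrial counts. They were tested with edgeR 4.0.16 (TMM, filterByExpr, day as a factor, 5 libraries, 1 residual degree of freedom, common biological coefficient of variation 0.0581). The code was run on counts simulated with the same dispersion in every library. That run cannot show whether D6 varies more than the untreated pair. CPM use TMM-scaled totals. P-values rest on the spread of the untreated pair. DESeq2 1.42.0, limma 3.58.1 and other cell filters were alternatives. Named were the 15 largest rises and falls with a mean of at least 20 CPM and D6 outside the untreated pair, up to 4 called genes per list, fixed genes, and extremes of the filter and day comparisons. A count of 0 was set to a floor of 3 counts for bounds. Members and lists were chosen with earlier results of these data known. Promoters are from RefSeq (GRCh38.p14) and positions from GENCODE. Phases were scored with scanpy 1.11.5 on cells thinned to 5000 UMIs. Some genes that the naming rule covers are not reported here.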

Additional observations from a re-analysis of the deposited data

Results flagged for a closer look

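Among the 22 genes called at day 6 against untreated, day 3 and day 9 alike, 4 averaged 20 CPM or more. Each day is 1 library with no spread of its own, and the edgeR fit lends it that of the untreated pair, so these calls compare libraries, and the values stand as a description of them. ZNF750 was higher at day 6 than at day 3 by a log2 fold change of 1.65 and than at day 9 by 1.75. RIPK4 was higher by 1.55 and 2.03, MAFF by 1.34 and 1.73, and HES1 by 1.08 and 1.38. The D3 value rests on 85 cells. Depth and freezing of single libraries cannot be told apart from the day.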

How the results depend on the processing

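Against 525 rises and 568 falls, 820 rises were called without the bound on mitochondrial share (418 shared), 227 rises and 215 falls by DESeq2 (227 and 213 shared), and 341 and 337 with cells thinned to 5000 UMIs (231 and 212 shared), which tests fewer genes and fewer counts. All other counts of calls stayed within 1.5 times. Called among the 30 largest changes were all 30 under each setting with a test, except PLAAT4 in G1 cells. Of all 107 named calls, 81 were kept by DESeq2, 81 after thinning, 80 in G1 cells and 97 without the bound. A set chosen after seeing the data, cells at or over the bound, also lost PLAAT4. Values that changed sign were, in G1 cells, ESRP2 (0.017), TAGLN (-0.0522), OASL (-1.04) and RSAD2 (-0.87). In all cells they were MT-ND6 (0.16) and FTX (1.03), and in cells at or over the bound CRYAB (-0.011). The cause was not tested. Leaving out untreated D0 replicate 1 or 2 moved 12 and 11 of 125 named values by more than their SE. Values without either ran from 1.92 to 3.68 for OASL (main value 2.60), 2.18 to 3.78 for CCL5 (2.83) and 1.26 to 2.58 for RSAD2 (1.82). MT-ND6 fell below the fold required without replicate 2 (-0.97). Of all called genes IFIT2 changed sign without replicate 1 (2.69) and MIF-AS1 without replicate 2. Genes called with 3 counts or fewer at D6 numbered 98 among the falls, and the depth of 188 cells sets their precision. No paired analysis was possible because the groups share fewer than 2 replicate numbers.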
